A study of Mus musculus with 8 samples.

Results

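The genes described here encode 9 heterochromatin factors that read H3K9 methylation or are partners in silencing with it. They were chosen by name, as the 3 HP1 genes (Cbx1, Cbx3 and Cbx5), the 3 core HUSH genes with their partner Morc2a (Mphosph8, Fam208a, Pphln1 and Morc2a), and the 2 genes of the ATRX-DAXX complex (Atrx and Daxx). All 9 were found among the 24062 genes counted, and all 9 passed the filter on low counts. RNA-seq of poly(A) RNA covered mouse embryonic stem cells (mESCs) in 4 conditions with 2 biological replicates each. All 8 libraries came from #33-6, a single conditional Setdb1 line, so that every condition carries the conditional allele. WT mESCs received no treatment. UNC0642-treated mESCs received 2 µM UNC0642, an inhibitor of the H3K9 methyltransferases G9a and GLP, for 3 days. Setdb1 KO mESCs received 800 nM 4-OHT for 5 days, which deletes Setdb1, the gene of a further H3K9 methyltransferase. UNC0642-treated Setdb1 KO mESCs, here the combined condition, received both agents. Its labels give 2 days of 800 nM 4-OHT followed by 3 days of 2 µM UNC0642, whereas the treatment protocol gives 5 days of 4-OHT. No library was from cells without the conditional allele given 4-OHT, so effects of 4-OHT and of Setdb1 loss cannot be told apart.

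HP1 proteins bind methylated H3K9 through a chromodomain and bridge neighbouring nucleosomes, and they are a hallmark of pericentric heterochromatin. The HUSH complex reads H3K9me3 through MPP8, works with SETDB1 and MORC2, and silences young L1 elements and newly integrated genes. ATRX and DAXX deposit the histone variant H3.3 at telomeres, pericentric repeats and silenced endogenous retroviruses. The question was whether the mRNA of these readers and partners responds when G9a and GLP are inhibited or Setdb1 is deleted.

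None of the 9 genes passed the test in any comparison. With edgeR's quasi-likelihood test (Benjamini-Hochberg adjusted p under 0.05, no limit on fold change), 0 of 9 were called in UNC0642-treated cells over WT mESCs, where 0% of all 16245 tested genes and repeat subfamilies were called. The count was also 0 of 9 in Setdb1 KO mESCs over WT mESCs, where 1.12% of all tested were called, and 0 of 9 in the combined condition over WT mESCs, where 4.11% were called. At an unadjusted p under 0.05, 0 of 9 passed in each of these comparisons, beside 3.35%, 8.7% and 18% of all tested. DESeq2 also called 0 of 9 in each, beside 0.784%, 3.5% and 9.34% of all it tested, and edgeR with the replicate number as a block called 0 of 9 beside 0.166%, 4.3% and 17.2%. The largest difference of the 9 was in Fam208a, which was 1.68-fold the WT level in Setdb1 KO mESCs.

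**Figure D1:**
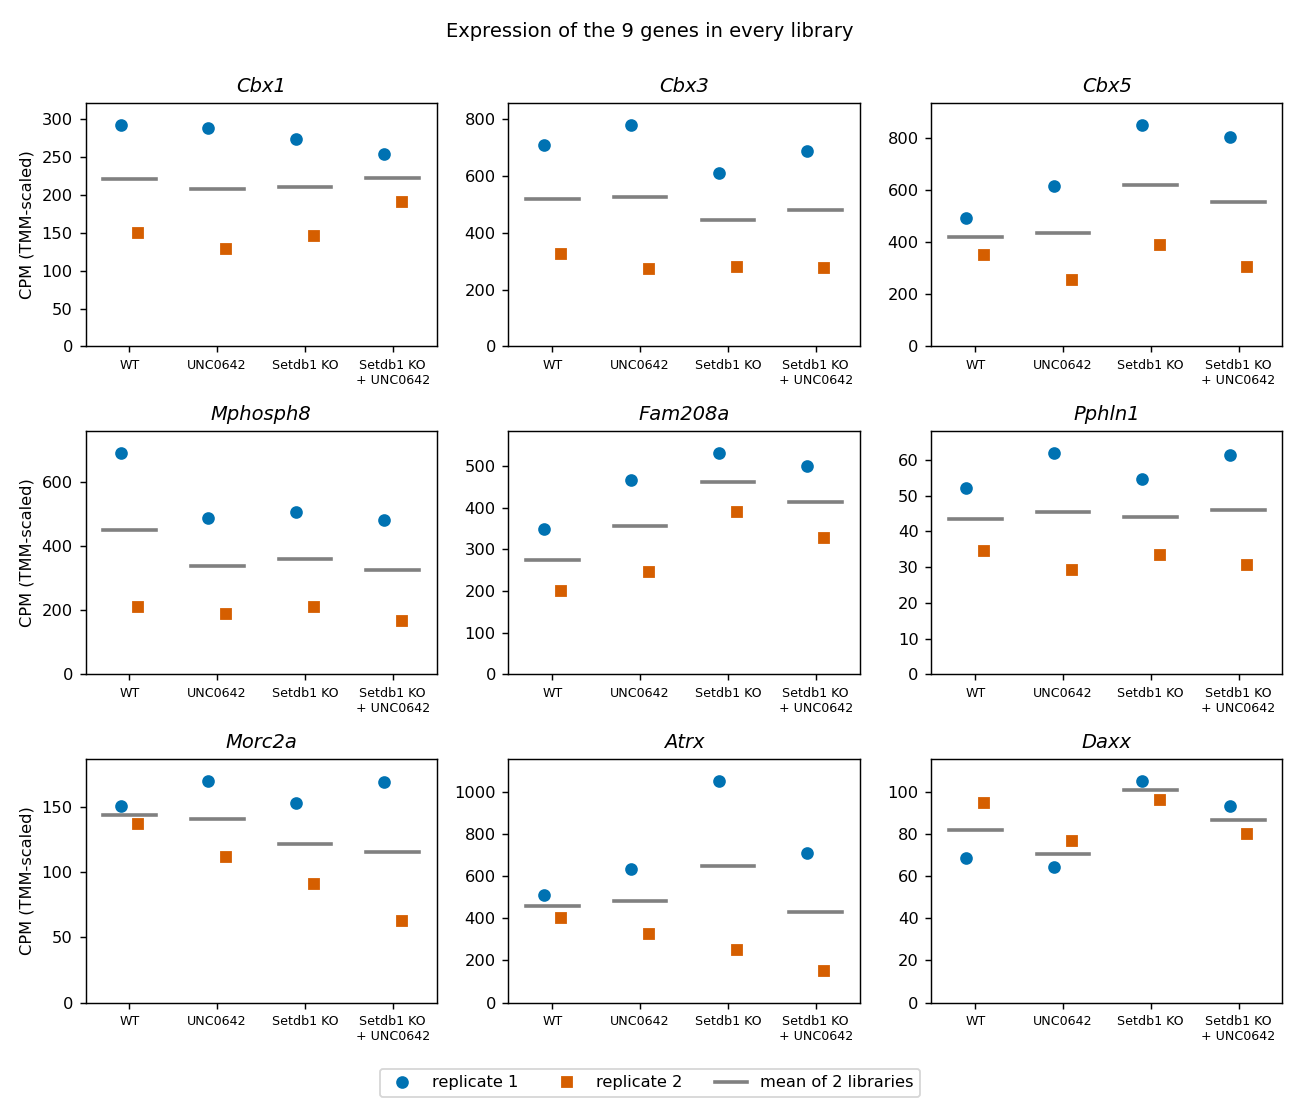
Expression of each gene in the 8 libraries as TMM-scaled CPM (counts scaled to the library total and a TMM factor) on a linear axis from 0, with circles for replicate 1, squares for replicate 2 and a grey bar for the mean of both. In 8 of the 9 panels the circle lies above the square in every condition, the exception being Daxx.

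The totals were between 11702590 and 26807807 counts per library, and 3 counts, taken as the detection floor, correspond to between 0.112 and 0.256 CPM. The lowest count of any of the 9 genes in any library was 590, for Pphln1, so counting error was small beside the spread between replicates. All 8 pluripotency markers on the list used (Pou5f1, Nanog, Sox2 and others) were above the floor in every library, with a summed level between 3567 and 5675 CPM. The 6 fibroblast markers summed to between 6.27 and 21.3 CPM and the 6 trophoblast markers to between 25.0 and 130.2 CPM. The 6 primitive endoderm markers summed to 11.7 and 50.8 CPM in WT mESCs and 61.6 and 69.8 CPM in UNC0642-treated cells. They summed to 12.2 and 20.9 CPM in Setdb1 KO mESCs and 21.7 and 19.5 CPM in the combined condition. In that condition edgeR with the block called 1 fibroblast marker higher, 1 fibroblast marker lower and 1 trophoblast marker lower, beside 17.2% of all tested features. Setdb1 was at 169 and 127 CPM in WT mESCs and at 47.3 and 51.0 CPM in Setdb1 KO mESCs. It was at 61.1 and 34.1 CPM in the combined condition. These log2 fold changes of -1.59 and -1.64 did not pass edgeR's test without the replicate block (adjusted p = 0.181 and 0.0746), and passed with it (0.0164 and 0.00593) and with DESeq2 (adjusted p = 0.0475 and 0.0209). With total-count scaling in place of TMM, edgeR without the block called Setdb1 in the combined condition (adjusted p = 0.0338). In bulk RNA, fewer cells of a type and less RNA per cell cannot be told apart.

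The annotation limits how far some levels can be read. For Cbx3, 24.6% of all 50-base stretches of its longest transcript occur exactly in transcripts of other genes, all of them in the processed pseudogene Cbx3-ps6. The counts of Cbx3 are uncertain for this reason, and the share of counts affected was not measured. For Fam208a, 19.9% of the exon bases overlap exons of Ccdc66 on the opposite strand, and for Mphosph8 13.1% overlap those of the lincRNA Gm16973. The strand setting used for counting is not given in the sources used here, so reads from such pairs may have been mixed.

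Among the HP1 genes, Cbx3 had the highest level per length. Cbx3, which encodes HP1γ (chr6:51470360-51483704, plus strand, GRCm38), was the highest of the 9 in WT mESCs, at 264 ± 139 CPM per kb of exon (SD, n = 2). Cbx1, which encodes HP1β (chr11:96789127-96808640, plus strand), was at 91.0 ± 41.4 CPM per kb. Cbx5, which encodes HP1α (chr15:103191544-103239816, minus strand), was at 46.8 ± 11.1 CPM per kb.

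Cbx1 was at 292 and 149.9 CPM in replicates 1 and 2 of WT mESCs, 288 and 129 CPM in UNC0642-treated cells, 274 and 146 CPM in Setdb1 KO mESCs, and 254 and 190.5 CPM in the combined condition. In every condition replicate 1 was the higher one, and the conditions overlapped. The log2 fold changes over WT mESCs were -0.08, -0.07 and 0.01. The 95% intervals of these changes ran from 0.400-fold to 2.37-fold, and with the replicate number as a block from 0.627-fold to 1.57-fold.

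Cbx3 was at 709 and 325 CPM in WT mESCs, 778 and 274 CPM in UNC0642-treated cells, 609 and 279 CPM in Setdb1 KO mESCs, and 687 and 275 CPM in the combined condition. The 4 libraries of replicate 1 all lay above the 4 of replicate 2. Against the WT library of the same replicate number, Cbx3 was lower by nearly the same log2 ratio in both Setdb1 KO libraries (-0.22 and -0.22). The fitted change of -0.22 ± 0.70 (SE) did not pass the test, without or with the block (adjusted p = 1 and 0.669).

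Cbx5 was at 491 and 351 CPM in WT mESCs, 614 and 255 CPM in UNC0642-treated cells, 847 and 389 CPM in Setdb1 KO mESCs, and 801 and 306 CPM in the combined condition. Replicate 1 of both KO conditions was higher than any other library, whereas replicate 2 stayed within the range of the remaining ones. The log2 fold change in Setdb1 KO mESCs was 0.55 ± 0.65 (SE) and that in the combined condition was 0.39 ± 0.65. Within replicate 2 the latter was -0.20, against 0.70 within replicate 1.

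Among the HUSH genes, the treated condition means of Mphosph8 were below the WT mean and those of Fam208a above it. Neither gene passed the test, and the libraries of Mphosph8 in every treated condition overlapped with those of WT. Mphosph8 (chr14:56668248-56697430, plus strand) encodes MPP8, the chromodomain subunit that reads H3K9me3. It was at 691 and 212 CPM in WT mESCs, 489.8 and 190.1 CPM in UNC0642-treated cells, 508 and 211 CPM in Setdb1 KO mESCs, and 484 and 167 CPM in the combined condition. All 6 treated libraries were below the WT library of the same number, by log2 ratios between -0.51 and -0.003. How many of all tested features had all 6 below in this way was not computed. The log2 fold changes of -0.41, -0.33 and -0.47 did not pass the test, and replicate 1 of WT mESCs takes part in all of them. Without that library, in fits without the block, the 3 values were between 0.61 and 0.77. WT is then replicate 2 alone, while the treated conditions keep replicate 1, which was 2.77-fold above replicate 2 for this gene. Within replicate 2 the log2 ratios to WT were -0.16, -0.003 and -0.34.

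Fam208a (chr14:27428834-27483555, plus strand; Tasor in RefSeq) encodes TASOR, the scaffold on which HUSH assembles. It was at 348 and 200.2 CPM in WT mESCs and at 467 and 246 CPM in UNC0642-treated cells. In Setdb1 KO mESCs it was at 531 and 391 CPM and in the combined condition at 501 and 327 CPM. Both Setdb1 KO libraries lay above both WT libraries, as they did for 17.5% of all tested features, whereas the other treated libraries overlapped with WT. Each treated library was higher than the WT library of its number, by 0.42 and 0.30 (log2) in UNC0642-treated cells, 0.61 and 0.96 after Setdb1 KO, and 0.52 and 0.71 in the combined condition. These comparisons share the 2 WT libraries, and the share of all tested features with every treated library higher in this way was not computed.

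The fitted log2 fold changes of Fam208a were 0.38 ± 0.50, 0.75 ± 0.51 and 0.59 ± 0.51 (SE), with edgeR adjusted p-values of 1, 0.873 and 0.623. With the block, the values in Setdb1 KO and in the combined condition were 0.79 ± 0.23 and 0.62 ± 0.23, and the 95% intervals ran from 1.21-fold to 2.48-fold and from 1.07-fold to 2.19-fold. Their unadjusted p of 0.00753 and 0.0248 stood beside 17.9% and 33.7% of all tested features with an unadjusted p under 0.05 in that fit. The blocked adjusted p-values from edgeR were 0.105 and 0.0953, so that neither passed the threshold. Ccdc66, whose exons overlap Fam208a on the opposite strand, had log2 fold changes of 0.48 and 0.51 in these comparisons, and its part in the Fam208a values was not tested.

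Pphln1 and Morc2a were the lowest of the HUSH group per length. Pphln1 (chr15:93398350-93491510, plus strand) encodes periphilin, the RNA-binding subunit of HUSH. It was at 52.25 and 34.5 CPM in WT mESCs, 61.8 and 29.1 CPM in UNC0642-treated cells, 54.5 and 33.3 CPM in Setdb1 KO mESCs, and 61.2 and 30.7 CPM in the combined condition. The 4 libraries of replicate 1 lay above the 4 of replicate 2, and the log2 fold changes of 0.07, 0.02 and 0.08 were small beside that gap. With the block, the 95% intervals of all 3 comparisons lay between 0.685-fold and 1.49-fold.

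Morc2a (chr11:3649191-3690477, plus strand) encodes an ATPase that compacts chromatin at HUSH targets. It was at 150.3 and 137 CPM in WT mESCs, 169 and 112 CPM in UNC0642-treated cells, 153 and 90.7 CPM in Setdb1 KO mESCs, and 169 and 62.5 CPM in the combined condition. Replicate 1 of every treated condition was above both WT libraries and replicate 2 of every treated condition below both. The log2 ratios within a replicate number were 0.17 and -1.13 in the combined condition, and the fitted change of -0.31 ± 0.53 (SE) did not pass the test.

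**Figure D2:**
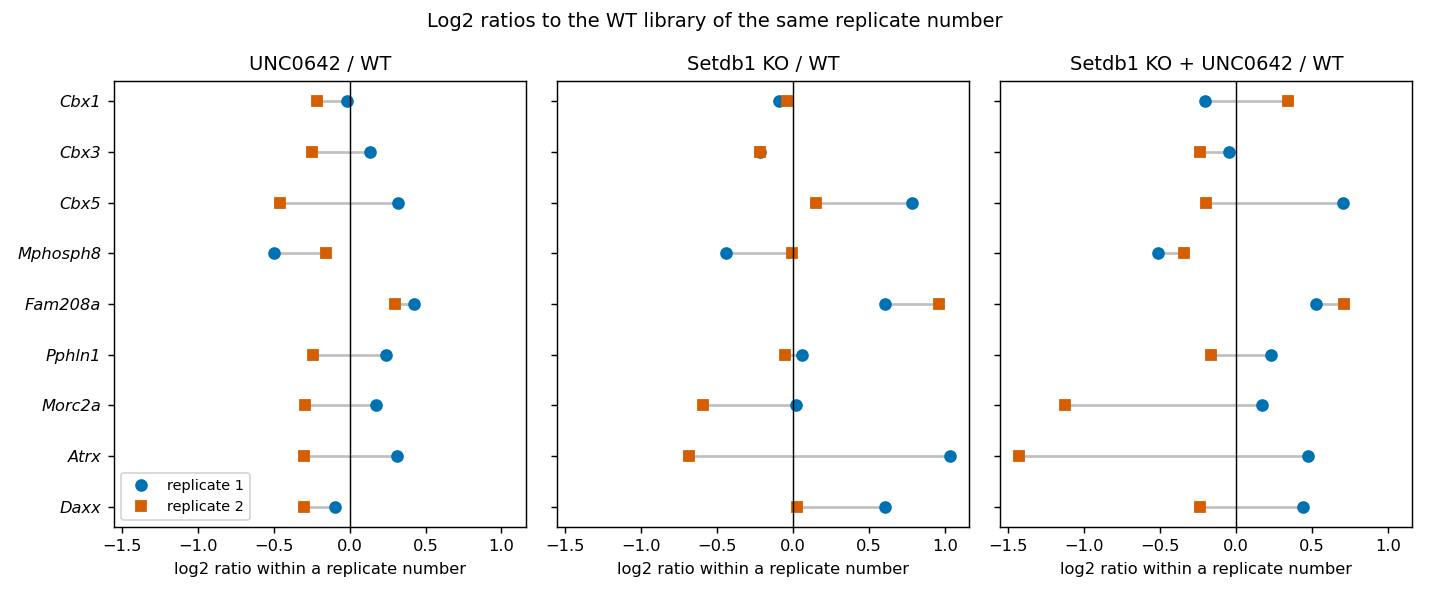
Log2 ratio of each treated library to the WT library of the same replicate number, computed on CPM plus 0.5, for the 9 genes in the 3 comparisons with WT (circles, replicate 1; squares, replicate 2; the line joins both). Fam208a lies to the right of 0 and Mphosph8 to the left of 0 in all 3 panels, while Atrx runs from -1.43 to 0.48 in the combined condition.

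Within the ATRX-DAXX pair, Atrx varied most and Daxx least of the 9 genes. Atrx (chrX:105797615-105929403, minus strand) encodes a SNF2-type remodelling ATPase. It was at 511 and 401 CPM in WT mESCs, 634 and 326 CPM in UNC0642-treated cells, 1049.8 and 249 CPM in Setdb1 KO mESCs, and 711 and 149 CPM in the combined condition. The replicates moved apart, since replicate 1 was above and replicate 2 below both WT libraries in each treated condition. The log2 ratios to WT were 1.04 and -0.68 within replicates 1 and 2 after Setdb1 KO, and 0.48 and -1.43 in the combined condition. The fitted changes of 0.51 ± 0.82 and -0.09 ± 0.82 (SE) therefore had wide 95% intervals, from 0.396-fold to 5.13-fold and from 0.263-fold to 3.38-fold.

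Daxx (chr17:33909414-33915590, plus strand) encodes the H3.3 chaperone that ATRX recruits. It was at 68.6 and 94.4 CPM in WT mESCs, 64.3 and 76.7 CPM in UNC0642-treated cells, 105 and 96.1 CPM in Setdb1 KO mESCs, and 93.1 and 80.0 CPM in the combined condition. Both Setdb1 KO libraries were above both WT libraries, with 96.1 against 94.4 CPM at the closest, and above both libraries of the combined condition. Both libraries of the combined condition were in turn above both of UNC0642-treated cells. A pair of libraries above or below the other pair in this way was found in 17.5%, 13.3% and 16.3% of all tested features in these 3 comparisons and directions. The log2 fold changes over WT of -0.21 ± 0.37, 0.30 ± 0.37 and 0.09 ± 0.37 (SE) did not pass the test. Their 95% intervals lay between 0.487-fold and 2.19-fold, the narrowest without the block.

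**Figure D3:**
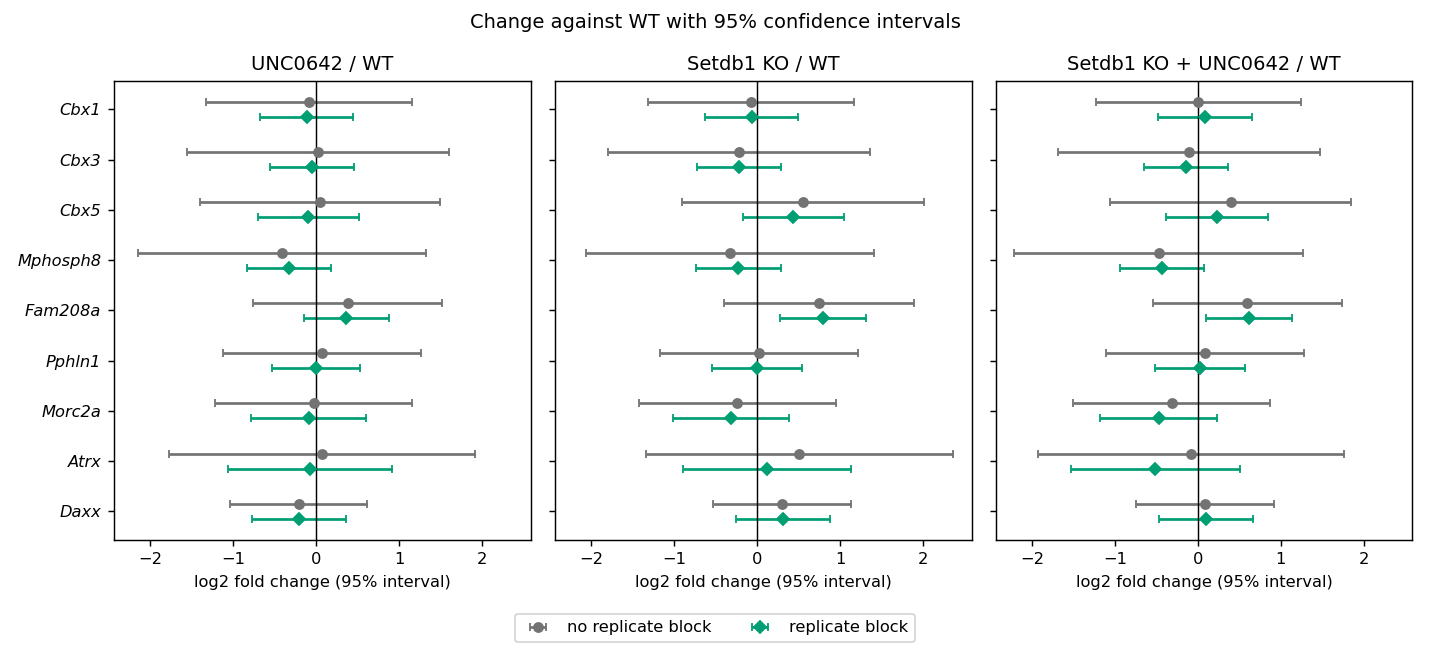
Log2 fold change against WT with its 95% confidence interval for the 9 genes in UNC0642-treated cells, Setdb1 KO mESCs and the combined condition, from edgeR without (grey circles) and with (green diamonds) the replicate number as a block. All 27 grey intervals contain 0, and with the block 25 of 27 do, the exceptions being Fam208a in both KO conditions.

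Taking the 3 comparisons with WT, the 27 fold changes were between 0.720-fold and 1.68-fold. The 95% intervals were wide without the block, with a median half-width of 1.24 on the log2 scale (2.36-fold), and narrower with it, at 0.56 (1.48-fold). With the block they reached from 0.347-fold (Atrx, the combined condition) to 2.48-fold (Fam208a, Setdb1 KO mESCs). Each interval gives the range of changes that these libraries leave possible for a gene, and it is not a detection limit.

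The other comparisons gave the same count. With edgeR, 0 of 9 genes were called in the combined condition over Setdb1 KO mESCs (0% of all tested), over UNC0642-treated cells (1.16%), in the interaction of both treatments (0%) and in the test for any difference among the 4 conditions (2.39%). At an unadjusted p under 0.05 the count was again 0 of 9 in each, beside 4.58%, 9.07%, 0.751% and 10.9% of all tested. DESeq2 called 0 of 9 in each, beside 0.634%, 3.59%, 0.00616% and 7.17%, and edgeR with the block called 0 of 9, beside 0.129%, 4.65%, 0% and 8.51%. The log2 fold changes were between -0.60 and 0.12 over Setdb1 KO mESCs, with 3 genes higher and 6 lower, and between -0.28 and 0.35 over UNC0642-treated cells, with 5 higher and 4 lower. Within replicate numbers, 5 of 9 genes (Cbx5, Mphosph8, Fam208a, Atrx and Daxx) were lower in both libraries of the combined condition than in Setdb1 KO mESCs, as were 33.4% of all tested features.

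Replicate number was the only term called for these genes. In the edgeR fit with the block, the replicate term was called for 8 of 9 genes, all of them higher in replicate 1, while it was called for 34.9% of all tested features, 16.6% being higher and 18.3% lower in replicate 1. Replicate 1 was 2.77-fold above replicate 2 for Mphosph8, 2.67-fold for Atrx, 2.41-fold for Cbx3, 2.1-fold for Cbx5, and between 1.62-fold and 1.82-fold for Fam208a, Morc2a, Pphln1 and Cbx1. The exception was Daxx, at 0.938-fold (edgeR adjusted p = 0.712). In every condition replicate 1 lay above replicate 2 for 8 of 9 genes, and for 24.2% of all tested features. The share of counts assigned to repeats was also higher in replicate 1 of every condition, for example 3.70% against 2.77% in WT mESCs and 17.1% against 11.4% in the combined condition. Replicate 1 had the smaller total in WT and in the combined condition and in UNC0642-treated cells, and the larger one in Setdb1 KO mESCs. The part of these in the replicate difference was not tested.

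Per kb of exon the order of the 9 condition means did not change with treatment. In WT mESCs it was Cbx3 (264 CPM per kb), Mphosph8 (154), Cbx1 (91.0), Cbx5 (46.8), Fam208a (36.1), Atrx (35.8), Daxx (28.8), Morc2a (25.4) and Pphln1 (11.2 CPM per kb). The ranks were identical in all 4 conditions. Most neighbours in this order were not separated, however. In WT mESCs only Cbx1 over Cbx5 and Morc2a over Pphln1 had libraries that did not overlap. In UNC0642-treated cells this was so only for Morc2a over Pphln1, in Setdb1 KO mESCs for Daxx over Morc2a and Morc2a over Pphln1, and in the combined condition for no neighbours. The libraries with the highest and lowest level differed 7.07-fold for Atrx, 4.15-fold for Mphosph8 and 1.63-fold for Daxx.

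**Figure D4:**
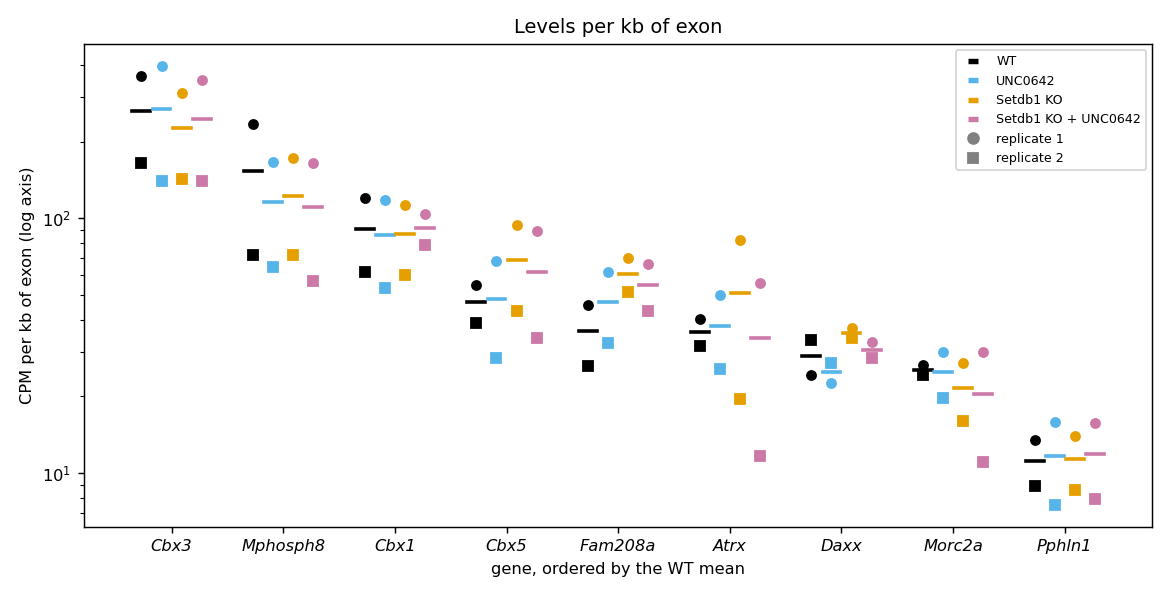
Level of each gene in CPM per kb of merged coding-transcript exons on a log axis, ordered by the WT mean, with colours for the 4 conditions, circles and squares for replicates 1 and 2 and bars for the means. Cbx3 lies between 140 and 397 CPM per kb and Pphln1 between 7.51 and 15.9 CPM per kb, and the order of the bars is the same in every colour.

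A close relative of a HUSH gene passed some alternative fits, but not edgeR's test on all 8 libraries without the block. Fam208b (chr13:3566035-3611108, minus strand; Tasor2 in RefSeq), the paralog of Fam208a, was at 143 and 84.8 CPM in WT mESCs and 171 and 56.4 CPM in UNC0642-treated cells. It was at 927 and 371 CPM in Setdb1 KO mESCs and 945 and 331 CPM in the combined condition. All 4 libraries of the KO conditions lay above all 4 of the others. Both Setdb1 KO libraries were above both WT libraries in 17.5% of all tested features. Both of the combined condition were above both UNC0642-treated ones in 16.3%, and the share with the full separation was not computed. The log2 fold changes of Fam208b were 2.51 ± 0.76 and 2.49 ± 0.76 (SE), or 5.71-fold and 5.61-fold. They missed the threshold without the block (edgeR adjusted p = 0.231 and 0.113) and passed it with the block (adjusted p = 0.00225 and 0.00135) and with DESeq2 (adjusted p = 0.0172 and 0.00765). Over all 16 alternatives they were between 1.71 and 3.01 and between 1.54 and 3.06, and 3 of 16 passed in each comparison. The value of 1.54 came without replicate 1 of the combined condition. Of its exon bases, 11.2% overlap Gdi2 on the opposite strand, which had log2 fold changes of 0.31 and 0.19. The difference between the Fam208a and Fam208b changes was not tested.

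Neither paralog passed edgeR's test on all 8 libraries without the block, and only Fam208b passed with the block and with DESeq2. For comparison the promoters of both are shown. They are the 250 bases upstream of the first RefSeq start, 5′ to 3′ on the gene's strand (GRCm38.p6; Fam208a chr14:27428584-27428833, plus; Fam208b chr13:3611109-3611358, minus), with CpG dinucleotides in capitals.
Fam208a: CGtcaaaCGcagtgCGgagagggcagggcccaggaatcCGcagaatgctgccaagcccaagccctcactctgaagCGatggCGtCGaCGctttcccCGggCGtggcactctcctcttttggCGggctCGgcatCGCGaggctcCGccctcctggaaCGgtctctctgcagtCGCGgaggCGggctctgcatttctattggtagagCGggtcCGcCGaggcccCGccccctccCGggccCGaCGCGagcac
Fam208b: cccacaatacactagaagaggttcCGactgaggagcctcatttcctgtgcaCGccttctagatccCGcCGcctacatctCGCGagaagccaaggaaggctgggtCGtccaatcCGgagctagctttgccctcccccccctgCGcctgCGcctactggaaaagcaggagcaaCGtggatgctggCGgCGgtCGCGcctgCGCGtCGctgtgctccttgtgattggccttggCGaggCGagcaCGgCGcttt

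Both windows are rich in CpG. That of Fam208a holds 27 CpG and that of Fam208b 22, and 8.56% and 14.8% of all 32851 RefSeq windows of this length hold as many or more. The windows of the 9 genes, each at the first start RefSeq lists, held between 6 (Atrx) and 46 (Pphln1) CpG with a median of 27, against a median of 6 over all windows. The ETS core motif CCGGAAG, searched on both strands, was in that window of 1 of the 9 genes (Daxx), in the window of a later listed start of Pphln1, and in 6.91% of all windows. The motifs TGACGTCA (CRE) and AAGATGGCG (YY1) were in 0 of the 9 and in 1.55% and 0.606% of all windows.

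Of the wider list of 10 HUSH and MORC relatives, 0 were called by edgeR without the block in any comparison with WT. With the block, 2 were called higher in Setdb1 KO mESCs and 4 higher and 1 lower in the combined condition, where 4.3% and 17.2% of all tested features were called. The list's median log2 fold changes were 0.27 and 0.42, against -0.02 and -0.01 over all tested features. The list was chosen with earlier results of these data known, so these contrasts are no independent test of it. Beside Fam208b, Atf7ip was called with the block in both KO conditions. It encodes a cofactor that keeps SETDB1 in the nucleus, and was at 102 and 94.2 CPM in WT mESCs, 341 and 211 CPM in Setdb1 KO mESCs, and 373 and 155 CPM in the combined condition. Its log2 fold changes were 1.49 ± 0.51 and 1.42 ± 0.50 (SE), with edgeR adjusted p-values of 0.326 and 0.169 without the block and 0.0339 and 0.0223 with it. Without replicate 1 of the combined condition, the latter change was 0.65.

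The remaining members of that list were called only in the combined condition. Atf7ip2, the paralog of Atf7ip, had a log2 fold change of 1.46 ± 0.70 (SE; edgeR adjusted p = 0.315, with the block 0.0132). Morc4 had one of -1.25 ± 0.69 (0.392, with the block 0.033). Without replicate 1 of the combined condition, these values were 0.88 for Atf7ip2 and -2.22 for Morc4. That of Morc4 was -0.65 without replicate 2 of that condition and -0.71 without WT replicate 1. Morc2b, the paralog of Morc2a, was at 0.174 and 0.144 CPM in WT mESCs, near the detection floor. It was at 1.41 and 2.45 CPM in UNC0642-treated cells, 0.466 and 0.440 CPM in Setdb1 KO mESCs, and 0.934 and 2.02 CPM in the combined condition. Both conditions with UNC0642 were above the other 4 libraries, and the share of all tested features separated in this way was not computed. For Morc2b the edgeR adjusted p was 0.355 in UNC0642-treated cells (0.120 with the block) and 0.0698 in the combined condition (0.0198 with the block). No fold change is given for it because the WT libraries held few counts.

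Of the 10 HP1 partners listed, which include Trim28 and the CAF-1 subunits Chaf1a and Chaf1b, 0 were called in any comparison with WT, without or with the block. Of all tested features, 0%, 1.12% and 4.11% were called without the block in these comparisons, and 0.166%, 4.3% and 17.2% with it. The log2 fold changes of the 10 partners in the combined condition ran from -0.70 (Chaf1a) to 0.65 (Hells), with a median of -0.18. Of the 10 genes listed for H3.3 deposition, 9 were tested, Sp100 being at or near 0 in every library. H3f3b, 1 of the 2 H3.3 genes, was the only one called, with the block in the combined condition, beside 17.2% of all tested features. There it rose by a log2 value of 1.52 ± 0.45 (SE). Its adjusted p from edgeR was 0.106 without the block and 0.00949 with it. It was at 505 and 392 CPM in WT mESCs and at 1011.4 and 1567 CPM in that condition. The lowest of this list there was Pml, at -0.87.

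Of 6 chromodomain relatives, among them the Polycomb gene Cbx2 and Cdyl, only Cbx2 was called, lower and with the block, in the combined condition. In that fit 17.2% of all tested features were called in either direction. Cbx2 went from 18.3 and 33.3 CPM in WT mESCs to 9.86 and 9.49 CPM, a log2 fold change of -1.42 ± 0.47 (SE). Its adjusted p from edgeR was 0.142 without the block and 0.0216 with it, and the change was -0.90 without WT replicate 2. Among the 6 H3K9 methyltransferase genes, Ehmt2, which encodes G9a, was the only one called beside Setdb1. It was called lower in the same condition and only with the block (log2 fold change -1.29 ± 0.47 (SE); adjusted p = 0.185 without, 0.0235 with it), and the change was -0.68 without WT replicate 2. For scale, 6 of 11 repeat subfamilies listed as silenced by H3K9 methylation were called higher in Setdb1 KO mESCs and 10 of 11 in the combined condition without the block, and 11 of 11 in both with it. With either WT library left out, 0 of 11 were called in either comparison.

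**Figure D5:**
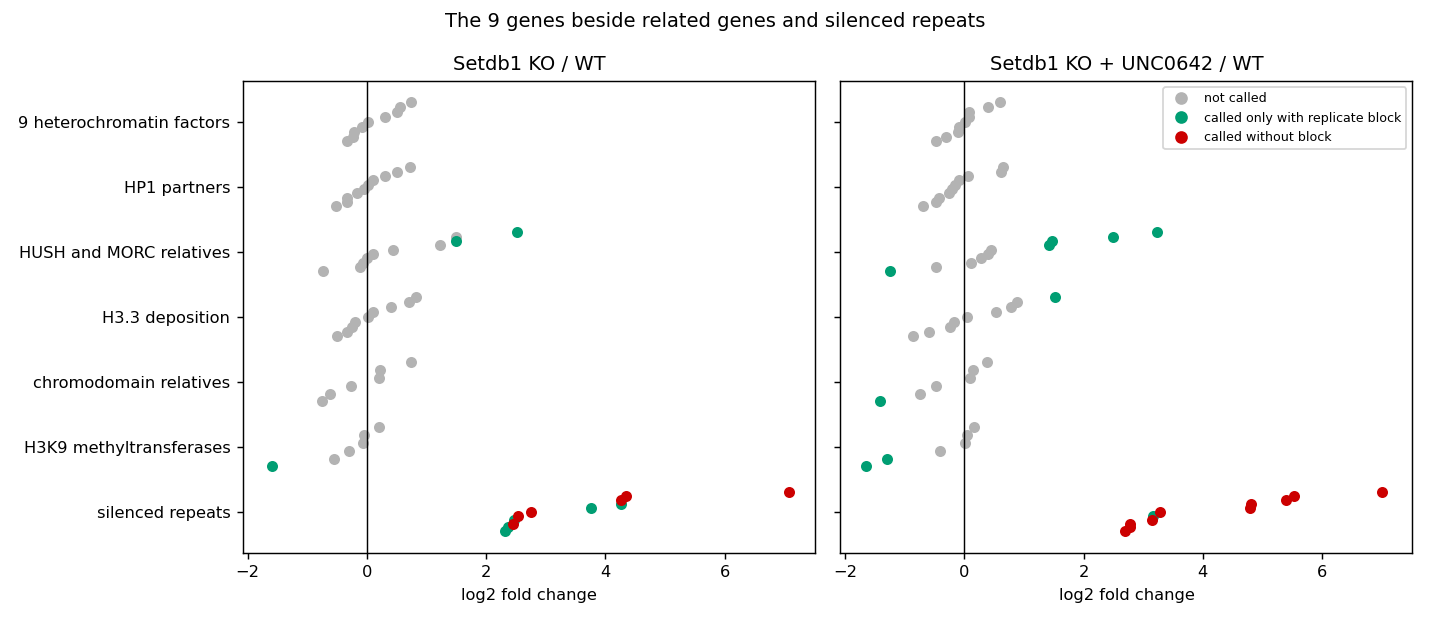
Log2 fold change over WT in Setdb1 KO (left) and the combined condition (right), 1 point per gene or repeat subfamily, for the 9 heterochromatin factors, 5 lists of related genes and 11 repeat subfamilies. Grey points were not called, green ones only with the replicate block and red ones without it. The 9 factors lie between -0.47 and 0.75, and the red points are all repeats.

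The genes whose pattern over the 8 libraries was most like that of each factor were found by the root mean square difference of centred log2 CPM. Each is the smallest difference over all tested genes, and no background difference was computed. The part of the replicate difference in these matches was not tested. The closest match of all was Ccdc104 to Cbx1, at 0.058, where Cbx1 itself deviated by 0.46 from its mean. Cbx3 was nearest to Htatsf1 and Mtdh (0.086 and 0.095), and Cbx5 to Dnmt3b, a DNA methyltransferase gene, and Taok1 (0.11 and 0.14). Mphosph8 was nearest to Rock1 and Hnrnpa3 (0.12 and 0.13), Fam208a to Fam150b and Zfp58 (0.089 and 0.11), Pphln1 to Cdv3 and Cpsf2 (0.063 and 0.070), and Morc2a to Eml4 and Pabpc1 (0.061 and 0.087). The loosest matches were those of Atrx, to Cdk12 and the HP1 partner Chd4 (both 0.17), where Atrx itself deviated by 0.84. Daxx was nearest to Dedd and Kdelr2 (0.11 and 0.12).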

How the data were processed

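The authors trimmed reads with Trim Galore 0.3.7, mapped them with TopHat2 to GRCm38 and counted them with TEtranscripts at its defaults. The deposited tables hold unnormalized counts for genes and repeat subfamilies. The gene annotation release and strand setting are not given in the sources used here. Conditions and replicate numbers came from the labels. With R 4.3.3 and edgeR 4.0.16, features were filtered (filterByExpr, minimum count 10, total 15), scaled by TMM (factors 0.810 to 1.20), and tested by the quasi-likelihood F test on all 8 libraries without covariates. DESeq2 1.42.0 was an alternative, as were the replicate block, RLE and total-count scaling, no filter, genes only, thinning, only the libraries compared, and leaving out each library. Fits that left out a library had no replicate block. The fits were tested on simulated data. Counts gave CPM, whose floor is 3 counts and covers counting error only. Deviations of same-numbered libraries correlated over 15313 genes at 0.285 to 0.663 in all 6 pairs of conditions. Same-numbered libraries thus deviated alike, though no source used here states a pairing or gives the reason. The fit without the block does not take this into account. All p-values measure the spread between these libraries. Positions came from GENCODE M21, promoters from RefSeq, Python 3.11.15 and pandas 2.3.3 handled tables. Members and lists were chosen with earlier results of these data known. Named genes are the 9 factors, Setdb1, listed genes that were called, had an unadjusted p under 0.05, ended some of the lists or are paralogs, and the 2 nearest patterns per factor. Markers of other cell types are given as sums and counts, not by name. A gene of the lists is not reported here.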

Additional observations from a re-analysis of the deposited data

How the results depend on the processing

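Not one of the 9 genes was called in any of the 7 tests under any of the 16 alternatives that gave a value for it, and the smallest adjusted p over the 432 alternative values against WT was 0.0953 (edgeR, Fam208a in the combined condition with the replicate block). The fit on only the libraries compared was not run for the interaction and the test for any difference. The replicate block changed no call of these 9 genes. It moved the number of all tested features called from 0 to 27 in UNC0642-treated, from 182 to 698 in Setdb1 KO and from 667 to 2790 in the combined condition over WT. It also changed the calls of Setdb1 and of the related genes named with it, none of which reversed under any alternative. DESeq2 called 120, 568 and 1518 features, total-count scaling 117 in Setdb1 KO mESCs, and leaving out a WT library 0 in Setdb1 KO mESCs (either library) and 0 or 55 in the combined condition (without replicate 1 or 2). Over all alternatives that kept every library, the number of features called ran from 0 to 120 in UNC0642-treated, 117 to 698 in Setdb1 KO and 472 to 2790 in the combined condition over WT, 0 to 103 in the combined condition over Setdb1 KO, 82 to 755 over UNC0642-treated mESCs, 0 to 1 in the interaction and 211 to 1382 in the test for any difference. With a library left out these ranges were 0 to 2, 0 to 202, 0 to 662, 0 to 0, 6 to 162, 0 to 0 and 129 to 389. Total-count scaling shifted the median log2 fold change of all features in the combined condition from -0.01 to -0.18.

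The sign of small changes was not stable. With the replicate block the log2 fold change in UNC0642-treated mESCs became -0.053 for Cbx3, -0.095 for Cbx5, -0.00034 for Pphln1 and -0.072 for Atrx. For Cbx3 there it was -0.0070 with DESeq2, -0.0070 with RLE scaling and -0.012 after thinning. Total-count scaling gave -0.072 for Pphln1 in Setdb1 KO mESCs, and -0.17 for Cbx1, -0.13 for Pphln1 and -0.12 for Daxx in the combined condition. Only the libraries compared gave -0.0020 for Pphln1 in Setdb1 KO mESCs, thinning -0.010 for Cbx1 and genes only 0.0065 for Atrx in the combined condition. Leaving out 1 library turned 24 of 27 values, the exceptions being Fam208a in both KO conditions (0.25 to 1.20) and Daxx in Setdb1 KO mESCs (0.089 to 0.54). In UNC0642-treated mESCs, the values with a library left out ran from -0.77 to 0.48 for Cbx1, from -0.91 to 0.70 for Cbx3, from -0.72 to 0.52 for Cbx5, from -1.24 to 0.69 for Mphosph8, from -0.15 to 0.84 for Fam208a, from -0.57 to 0.49 for Pphln1, from -0.36 to 0.21 for Morc2a, from -0.48 to 0.45 for Atrx, from -0.42 to 0.063 for Daxx. In Setdb1 KO mESCs, the values with a library left out ran from -0.60 to 0.49 for Cbx1, from -0.89 to 0.45 for Cbx3, from -0.12 to 0.99 for Cbx5, from -1.09 to 0.77 for Mphosph8, from -0.38 to 0.35 for Pphln1, from -0.67 to 0.064 for Morc2a, from -0.87 to 1.18 for Atrx. In the combined condition, the values with a library left out ran from -0.38 to 0.56 for Cbx1, from -0.91 to 0.56 for Cbx3, from -0.46 to 0.94 for Cbx5, from -1.44 to 0.61 for Mphosph8, from -0.50 to 0.51 for Pphln1, from -1.20 to 0.24 for Morc2a, from -1.62 to 0.65 for Atrx, from -0.14 to 0.35 for Daxx. The cause was not tested. With 2 libraries per condition, changes under about 1.48-fold with the block, and 2.36-fold without it, were within the median 95% half-width. This half-width is not a detection limit.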
